A study of Homo sapiens with 8 samples.

Results

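The genes described here encode interferons, the receptor chains that bind them and the kinases attached to those chains. They were chosen by name, and 10 of the 29534 gene names in the expression table are members: the ligands IFNB1 and IFNL1, the receptor chains IFNAR1, IFNAR2, IFNLR1, IL10RB, IFNGR1 and IFNGR2, and the kinases JAK1 and TYK2. The RNA came from BEAS-2B cells, a virus-transformed line that derives from human bronchial epithelium and is widely used. Cells received a pcDNA3.1 plasmid with JunD, a subunit of the transcription factor AP-1, or the empty vector for 12 h by lipid transfection. Smoke extract of cigarettes (CSE), at a concentration the labels do not state for these cells, followed for 24 h, and each group has 3 libraries. Both groups therefore share the transfection and the smoke, and no library without smoke was analysed here. Binding of JunD to chromatin was mapped by chromatin immunoprecipitation (ChIP) in cells exposed to 8% CSE for 24 h, with 1 precipitated and 1 input library, and the labels name no transfection for them.

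Interferons are secreted proteins that warn neighbouring cells of infection. The type I ligand IFNB1 binds the chains IFNAR1 and IFNAR2, the type III ligand IFNL1 binds IFNLR1 together with IL10RB, and interferon gamma binds IFNGR1 and IFNGR2. JAK1 and TYK2 are tyrosine kinases bound to the inner tails of these chains. JAK1 serves all 3 receptors, TYK2 the type I and type III receptors, and JAK2 takes its place beside IFNGR2. The kinases phosphorylate STAT factors, which enter the nucleus and switch on antiviral genes. Receptors for type III interferon are known to be largely restricted to epithelia.

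The 6 RNA libraries held 15967955 to 29617655 assigned reads. Of the variance between libraries, 77.3% separated the groups. JunD replicate 3 stood apart from its group on the component with 11.8% of the variance, at -22.2 against 11.7 and 10.8, so results that rest on it are given with and without it. Reads of mitochondrially encoded genes made up 3.88% to 4.73% with JunD and 5.22% to 5.31% with the empty vector. Of the epithelial markers, KRT8 stood at 114 ± 2.35 RPKM in JunD libraries against 179 ± 3.92 RPKM in the others (SD, n = 3 each) and KRT18 at 70.8 ± 7.71 against 92.4 ± 6.32 RPKM. The defining markers EPCAM, CDH1, KRT5 and KRT19 were at or near 0, with at most 11 reads in any library. CLDN1 and TP63, also among the epithelial markers, were higher with JunD and are given with the other markers below. JUND itself was at 70.3, 63.5 and 103 RPKM in JunD replicates 1 to 3 and at 13.2, 10.5 and 10.6 RPKM in empty-vector replicates 1 to 3. RPKM is the read count scaled to exon length and to library depth. Less RNA of a gene per cell and fewer cells that make it cannot be told apart in such bulk libraries. The labels number the libraries but name no separate cultures, so p-values measure the spread between these libraries only, which may be technical.

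The ligands were almost silent. IFNB1, the first interferon made by many infected cells, had 1, 0 and 2 reads in JunD replicates 1 to 3 and 0 reads in each empty-vector library. IFNL1, the first known of the lambda interferons, had 0, 2 and 2 reads with JunD and again 0 reads in each empty-vector library. All 7 reads of both genes thus came from JunD libraries, 1, 2 and 4 per library. Their 3 reads and 4 reads have exact Poisson 95% intervals of 0.619 to 8.77 and 1.09 to 10.2. For 0 reads over the empty-vector libraries the interval is 0 to 3.69. These intervals cover counting error only. A floor of 3 reads was set for each group. For IFNB1 both groups were at or under that floor, so no fold is given. For IFNL1, 4 reads against that floor are too few for a fold. JunD replicate 3 held the most reads of both genes, and the mean of 2.33 reads per JunD library was 1.5 without it. In a two-sided exact permutation test on RPM (reads scaled to library depth), p was 0.4 for each gene and 0.1 for their sum, and 0.1 is the smallest value that 3 against 3 libraries allow. A design of this size cannot pass a threshold of 0.05, so the p-values decide nothing about either gene.

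The sequences before the starts of both ligand genes are shown because the AP-1 partner JunD was raised and because these genes are known to be switched on by composite enhancers. They were taken from RefSeq (GRCh38.p14), run 5′ to 3′ toward the start and leave out bases inside an exon of the deposited table. Capitals mark matches to the motifs named after them.
IFNB1: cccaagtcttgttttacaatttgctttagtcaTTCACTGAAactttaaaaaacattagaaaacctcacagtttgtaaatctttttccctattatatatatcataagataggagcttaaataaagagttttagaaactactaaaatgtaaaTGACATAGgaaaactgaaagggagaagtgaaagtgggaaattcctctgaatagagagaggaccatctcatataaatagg
IFNL1: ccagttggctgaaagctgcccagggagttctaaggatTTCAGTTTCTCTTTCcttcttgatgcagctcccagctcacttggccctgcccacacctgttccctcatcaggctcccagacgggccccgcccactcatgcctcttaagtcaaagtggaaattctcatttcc
The IFNB1 stretch is chr9:21077964-21078192 on the minus strand, and the IFNL1 stretch is chr19:39296157-39296324 on the plus strand.

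In IFNB1 the capitals mark TTCNNNGAA, the GAS motif of STAT factors, and then TGACATAG, the ATF and AP-1 element of the known IFNB1 enhancer. The latter was taken from that enhancer, so its presence there is no finding. In IFNL1 they mark 2 overlapping copies of GAAANNGAA, the core of the interferon-stimulated response element, on the opposite strand. The motifs were searched on both strands in 250 bases before each RefSeq start, which gave 13 windows for 9 of the 10 members, with IFNAR2 not matched. The AP-1 motif TGANTCA and the related CRE motif TGACGTCA were in none of the 13 windows. Among 35116 RefSeq windows of the same length, 6.57% held TGANTCA, 1.65% TGACGTCA, 6.88% GAAANNGAA, 6.57% TTCNNNGAA and 0.379% TGACATAG. The IFNLR1 window also held TTCNNNGAA, and the windows of the other members held none of the 5 motifs. A match is a stretch of letters only and does not show binding. Only these 5 motifs were searched, so lower-case letters do not show that other known elements are absent.

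IFNLR1, the chain that gives type III receptors their specificity, was present at a low level. It lies on chromosome 1 (24154157 to 24187959, minus strand, GRCh38) and had 24, 26 and 23 reads with JunD and 16, 39 and 20 reads with the empty vector. Scaled to length and depth this was 0.295, 0.331 and 0.264 RPKM against 0.183, 0.267 and 0.227 RPKM. The groups overlapped by a narrow margin, with the lowest JunD library just under the highest empty-vector library. In RPM the means were 1.46 ± 0.17 and 1.11 ± 0.21 (SD, n = 3), and the exact permutation test (two-sided) gave p = 0.2, in a design that cannot go below 0.1. IFNLR1, IFNB1 and IFNL1 did not reach a mean of 1 RPKM over the 6 libraries, which left 7 of the 10 members for the test across genes.

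**Figure D1:**
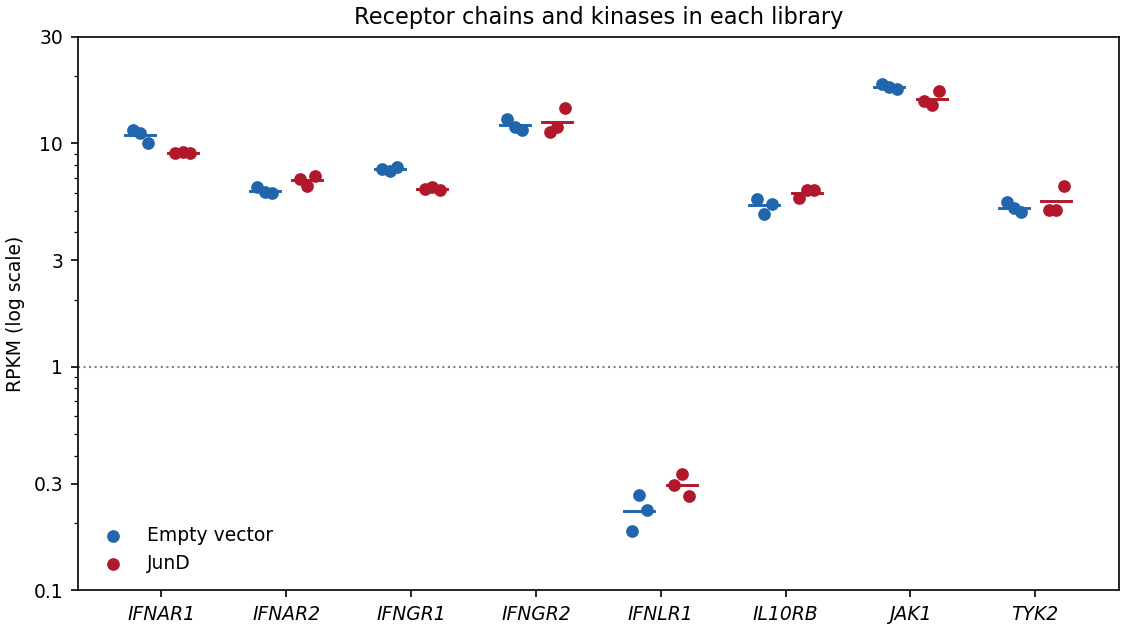
Expression of the 6 receptor chains and the kinases JAK1 and TYK2, with RPKM on a log axis, 1 point per library, and a line at each group mean (n = 3). The dotted line marks the filter of 1 RPKM, below which IFNLR1 lay in all 6 libraries; IFNAR1 and IFNGR1 with JunD lay below all empty-vector libraries.

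Among the tested members no gene moved by as much as 0.3 on the log2 scale in RPKM. Fold changes refer to log2(RPKM + 0.5), and genes were called at a limma adjusted p below 0.05. With JunD 2 of the 7 were called lower, IFNAR1 and IFNGR1, and 0 higher. At an unadjusted p below 0.05 JAK1 was lower too, and none was higher. Of 13379 genes tested 14.7% were called lower and 31.5% higher (46.2% in either direction), and the count of 2 in 7 is to be read against these shares. The libraries of the groups did not overlap for 5 of the 7, 3 lower and 2 higher with JunD, against 57.4% of all genes tested (18.5% lower and 38.8% higher). The median log2 fold change was 0.04 for the tested members and 0.10 for all genes tested.

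IFNAR1, the chain that TYK2 binds in the type I receptor, fell with JunD. It lies on chromosome 21 (33324477 to 33359862, plus strand) and was at 9.02, 9.13 and 9.02 RPKM in JunD replicates 1 to 3 and at 11.5, 11.1 and 10.03 RPKM in the empty-vector replicates. Every JunD library was below every empty-vector library, and the JunD libraries lay close together. The log2 fold change was -0.25 (standard error 0.06, limma adjusted p = 0.019). The call was lost when JunD replicate 1 or 2 or empty-vector replicate 1 or 2 was left out (limma adjusted p from 0.054 to 0.074) and with values scaled as TPM (-0.18, adjusted p = 0.057). It was also lost with replicate number as a block in the fit (limma adjusted p = 0.075). IFNAR1 shared no exon sequence with another listed gene.

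IFNGR1, the chain that binds interferon gamma, also fell. It lies on chromosome 6 (137197484 to 137219449, minus strand), and its values were 6.23, 6.38 and 6.21 RPKM with JunD against 7.70, 7.52 and 7.81 RPKM with the empty vector. The groups were well apart, with a gap wider than the range of either. The log2 fold change was -0.27 (standard error 0.05, limma adjusted p = 0.0056), and the call held without each library in turn (adjusted p at most 0.028) and under each other scaling. With replicate number as a block in the fit the call was lost (limma adjusted p = 0.051).

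The stretches before the RefSeq starts of the genes that fell are shown for comparison with those of the ligands. They hold no capitals, since none of the motifs searched was found in them.
IFNAR1: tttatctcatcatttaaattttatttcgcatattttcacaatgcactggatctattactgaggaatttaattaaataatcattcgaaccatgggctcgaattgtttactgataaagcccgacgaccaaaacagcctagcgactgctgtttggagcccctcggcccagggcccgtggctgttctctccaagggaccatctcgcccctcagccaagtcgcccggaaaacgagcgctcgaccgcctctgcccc
IFNGR1: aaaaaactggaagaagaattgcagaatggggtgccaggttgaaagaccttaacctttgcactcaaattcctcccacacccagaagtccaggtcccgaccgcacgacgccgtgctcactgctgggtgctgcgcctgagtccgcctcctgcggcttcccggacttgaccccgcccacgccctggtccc
The IFNAR1 stretch is chr21:33324145-33324394 on the plus strand, and the IFNGR1 stretch is chr6:137219450-137219635 on the minus strand.

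The partner chains were not called in either direction. IFNAR2, which carries JAK1 in the type I receptor, was at 6.95, 6.46 and 7.14 RPKM with JunD and at 6.37, 6.07 and 6.02 RPKM with the empty vector. The JunD libraries were all above the others by a small step, and the log2 fold change was 0.14 (95% interval -0.0024 to 0.29, limma adjusted p = 0.097). Of the exon length of IFNAR2, 48.4% is shared with other genes, 39.1% with the antisense gene IL10RB-AS1 and 9.36% with AP000295.9. AP000295.9 lies on the same strand as IFNAR2, so no strand setting could tell their reads in shared exon sequence apart. For the antisense gene, no source used here gives the strand setting of the counting, so its reads cannot be told apart either.

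IL10RB, the chain shared by type III interferon and interleukin 10 receptors, was at 5.72, 6.17 and 6.18 RPKM against 5.66, 4.81 and 5.36 RPKM. The lowest JunD library was barely above the highest empty-vector library. Its log2 fold change was 0.18 (95% interval -0.0014 to 0.35, adjusted p = 0.094 in limma), and 12.5% of its exon length is shared with AP000295.9. In TPM both IFNAR2 (0.21, adjusted p = 0.038) and IL10RB (0.24, adjusted p = 0.031) passed the limma threshold, while after quantile normalization they were at -0.0024 and 0.03.

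IFNGR2, which carries JAK2 in the interferon gamma receptor, overlapped between groups. It was at 11.2, 11.8 and 14.3 RPKM with JunD and at 12.8, 11.8 and 11.4 RPKM with the empty vector, and only JunD replicate 3 was above all others. The log2 fold change was 0.04 (95% interval -0.20 to 0.28, limma adjusted p = 0.76) and turned to -0.059 without JunD replicate 3. An overlap of 12.8% of its exon length with TMEM50B on the opposite strand limits this value too.

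The kinases followed no common direction. JAK1, on chromosome 1 (64833229 to 64966504, minus strand), was at 15.5, 14.9 and 17.1 RPKM with JunD and at 18.4, 17.8 and 17.5 RPKM with the empty vector. All JunD libraries were below the empty-vector libraries, with JunD replicate 3 nearest to them. The log2 fold change of JAK1 was -0.18 (95% interval -0.33 to -0.02, limma adjusted p = 0.063), which did not pass. Without JunD replicate 3 it was -0.23 and passed (adjusted p = 0.010), and it also passed after median-of-ratios scaling (-0.30) and quantile normalization (-0.28) and with limma voom on recovered reads (-0.18, adjusted p = 0.046).

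TYK2, on chromosome 19 (10350529 to 10380676, minus strand), was at 5.05, 5.04 and 6.44 RPKM against 5.44, 5.11 and 4.92 RPKM. Its groups overlapped, and JunD replicate 3 alone was high. The log2 fold change was 0.08 (95% interval -0.16 to 0.32, limma adjusted p = 0.55), and -0.027 without JunD replicate 3.

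The order of the levels was nearly the same in both groups. With the empty vector, JAK1 (17.9 ± 0.46 RPKM, SD, n = 3) was followed by IFNGR2 (12.04 ± 0.73), IFNAR1 (10.9 ± 0.75), IFNGR1 (7.68 ± 0.15), IFNAR2 (6.15 ± 0.19), IL10RB (5.28 ± 0.43), TYK2 (5.15 ± 0.26) and IFNLR1 (0.226 ± 0.042). The libraries of IFNGR2 and IFNAR1 overlapped there, as did those of IL10RB and TYK2, and other neighbours down to IFNLR1 did not overlap. With JunD the means were 15.8 ± 1.13, 12.5 ± 1.65, 9.06 ± 0.067, 6.27 ± 0.093, 6.85 ± 0.35, 6.02 ± 0.26, 5.51 ± 0.80 and 0.296 ± 0.034 RPKM for the same genes in turn. IFNGR1 and IFNAR2 thus changed places, without overlap between them in either group. The exon sequence that IFNAR2 shares with other genes limits its place in the order. With JunD the only neighbours among the receptors and kinases that overlapped were IL10RB and TYK2. IFNLR1 was the scarcest chain, at 0.049 ± 0.0058 of the RPKM of IL10RB with JunD and 0.043 ± 0.012 with the empty vector.

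How the pairs of chains and kinases stood to each other was examined as a ratio within each library, in which the scaling of the library cancels. IFNAR1 over IFNAR2 was 1.30, 1.41 and 1.26 in JunD replicates 1 to 3 and 1.80, 1.83 and 1.67 in the empty-vector replicates. The excess of IFNAR1 over its partner was smaller in every JunD library. IFNGR1 over IFNGR2 was 0.556, 0.540 and 0.433 against 0.600, 0.636 and 0.683, and JAK1 over TYK2 was 3.06, 2.95 and 2.65 against 3.39, 3.49 and 3.57. In these 3 pairs the groups did not overlap. Of all genes tested singly 57.4% did not overlap, and no such share was computed for ratios. In each of these pairs the first gene was itself lower in every JunD library. The log2 difference of the pair, with 0.5 added to each RPKM, changed by -0.39, -0.31 and -0.26 with JunD. Without JunD replicate 3 it changed by -0.36, -0.21 and -0.21. IFNLR1 over IL10RB was 0.0516, 0.0536 and 0.0427 in JunD replicates 1 to 3 against 0.0324, 0.0556 and 0.0424, and the groups overlapped. Its log2 difference changed by -0.04 with JunD, and by 0.10 with a pseudocount of 0.1. IFNLR1 lay below the 0.5 that was added, so the direction of this difference depends on the pseudocount. Exon sequence shared with other genes, 48.4% of the length of IFNAR2, 12.8% of IFNGR2 and 12.5% of IL10RB, limits the ratios with these chains. The two-sided exact permutation p was 0.1 for each of the first 3 pairs and 0.9 for the last (0.13 and 0.9 after Benjamini-Hochberg adjustment over the 4 pairs), and 3 against 3 libraries cannot go below 0.1.

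**Figure D2:**
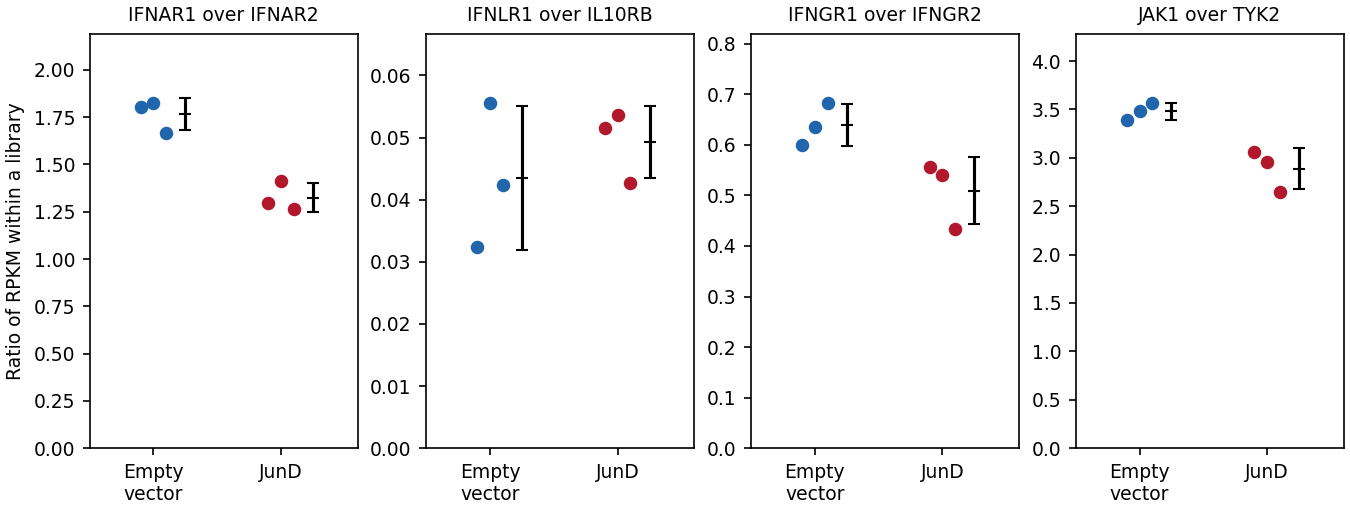
Ratio of RPKM between partners within each library, 1 point per library, with the mean and SD (n = 3) at the right of each group and each axis starting at 0. JunD libraries lay below all empty-vector libraries for IFNAR1 over IFNAR2, IFNGR1 over IFNGR2 and JAK1 over TYK2, and overlapped them for IFNLR1 over IL10RB. IFNAR2, IFNGR2 and IL10RB share exon sequence with other genes, which limits their ratios.

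Because the members moved so little, the scaling of the libraries bears on their direction. The median log2 fold change of all genes tested was 0.10 in RPKM, -0.02 after median-of-ratios scaling, -0.03 after quantile normalization and 0.16 in TPM, and 68.2%, 47.8%, 45.0% and 76.9% of all calls were higher in turn. Relative to that median IFNAR1 was at -0.35, -0.35, -0.35 and -0.34, and IFNGR1 at -0.37, -0.38, -0.38 and -0.37. JAK1 was at -0.28, -0.29, -0.25 and -0.27. The other tested members lay between -0.07 and 0.08 relative to the median under these 4 scalings. Taken as scaled, after median-of-ratios scaling and quantile normalization IFNAR1 was at -0.37 and -0.38 and IFNGR1 at -0.39 and -0.42, and in TPM they were at -0.18 and -0.20. IFNGR2 and TYK2 turned from above 0 to below 0 after median-of-ratios scaling (-0.083 and -0.038) and quantile normalization (-0.084 and -0.076).

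**Figure D3:**
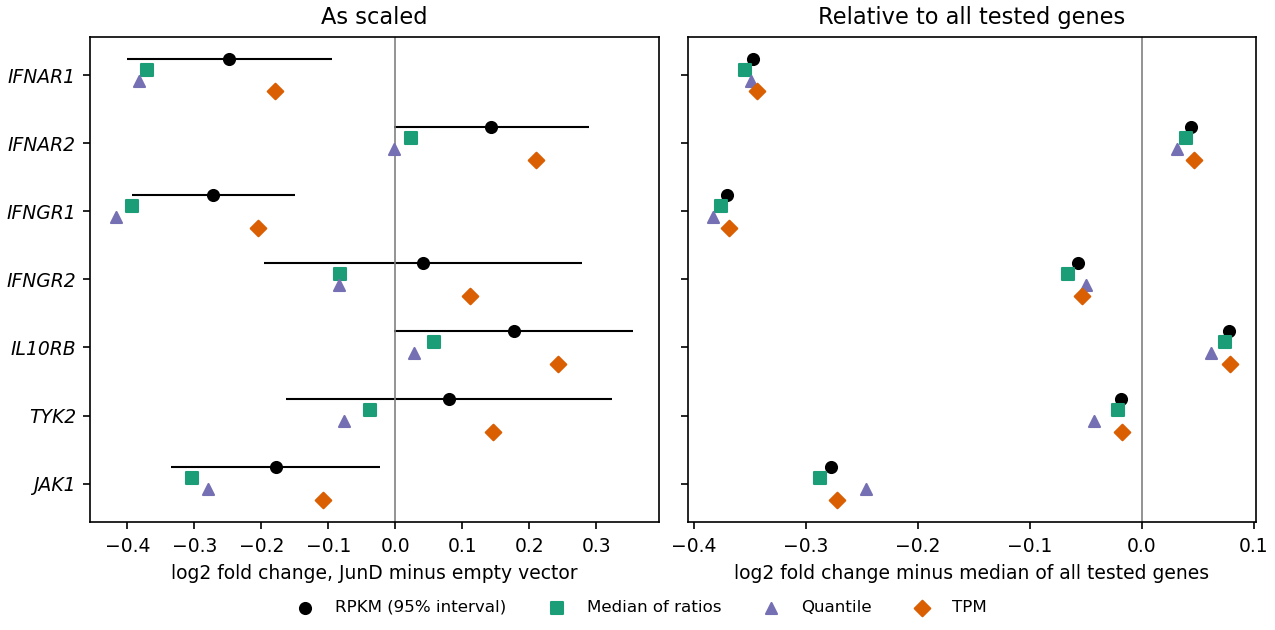
Log2 fold change (JunD minus empty vector) of the 7 tested members under 4 scalings, as scaled at left with the 95% limma interval for RPKM, and minus the median of all tested genes at right. At right IFNAR1, IFNGR1 and JAK1 stay between -0.38 and -0.25 under each scaling and the other members stay near 0.

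On chromosome 21 the genes IFNAR2, IL10RB, IFNAR1 and IFNGR2 lie side by side. Of the 12 tested genes with a start within 500 kb of that of IFNAR1, 1 was called higher and 2 lower. GART, a purine synthesis enzyme, rose by 0.26 on the log2 scale (limma adjusted p = 0.014) and ITSN1, an endocytic scaffold, fell by 0.59 (adjusted p = 0.0028). IFNAR1 was the other gene that fell. SON, DONSON, CRYZL1, TMEM50B, AP000295.9 and IL10RB-AS1 were not called, at 0.16, 0.09, -0.02, 0.13, 0.11 and 0.04.

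The genes most like each tested member in their log2 levels over the 6 libraries had Pearson correlations of at least 0.986. They were NDUFA13 and RP11-18D7.2 for IFNAR1, EHD2 and MAP4 for IFNGR1, TBCB and GAS2L1 for JAK1, and DKK3 and ACAD11 for TYK2. IFNAR2 was matched by RP11-685G9.2 and RSPRY1, IL10RB by RP11-856F16.2 and RP11-860B13.3, and IFNGR2 by TFE3 and PRKAR1B. With 6 points in 2 groups such values are common: 26 to 756 genes had a correlation above 0.95 with a given member.

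The other steps of the pathway were followed through lists of named genes. Outside the members and the markers, 62 listed genes were tested, of which 42 were called higher and 6 lower. Of all genes tested 31.5% were called higher and 14.7% lower, and each list's count is to be read against these shares. OAS1, RSAD2, IFI44L, GBP4, USP18, IFIH1, IRF7 and IL22RA1 had an empty-vector mean under 1 RPKM. They passed the filter only through the JunD libraries, so they had to be higher, and LIFR passed only through the empty-vector libraries. The counts and medians of the lists include these genes, so counts without them are added where a list holds any. The type I and III response genes, which are read as the output of the pathway, rose in 8 of 8 tested, with a median log2 fold change of 5.19. That count and median include OAS1, RSAD2 and IFI44L, which had to be higher. In the other 5 genes both groups were above the filter, and these rose by 4.58 to 5.61. IFIT3, which binds foreign RNA together with IFIT1, went from 6.35 ± 0.25 to 335 ± 15.01 RPKM (SD, n = 3), a log2 fold change of 5.61, and IFIT1 and OAS1 rose by 4.58 and 5.57. Of 10 response genes of interferon gamma, 8 were in the table and 2 were tested. IRF1 rose by 1.37, and GBP4, at 4.13 RPKM against 0.0098 RPKM, was higher, which passing the filter required. GBP2, below the filter, was at 0.603 and 0.602 RPKM. GBP5, a guanylate-binding protein, stayed below the filter with 319, 215 and 228 reads in JunD replicates 1 to 3 and 2, 1 and 1 in the empty-vector replicates. CIITA, the master factor of class II genes, also did not reach the filter and had 72, 69 and 114 reads with JunD against 79, 140 and 84. Scaled to length and depth, its means were 0.347 RPKM with JunD and 0.319 RPKM with the empty vector. Below the filter too, CD74 had 34, 21 and 36 reads with JunD against 1, 3 and 1. IDO1 had 9, 12 and 12 reads and HLA-DPA1 0, 0 and 2 reads with JunD, against 0 in each empty-vector library.

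**Figure D4:**
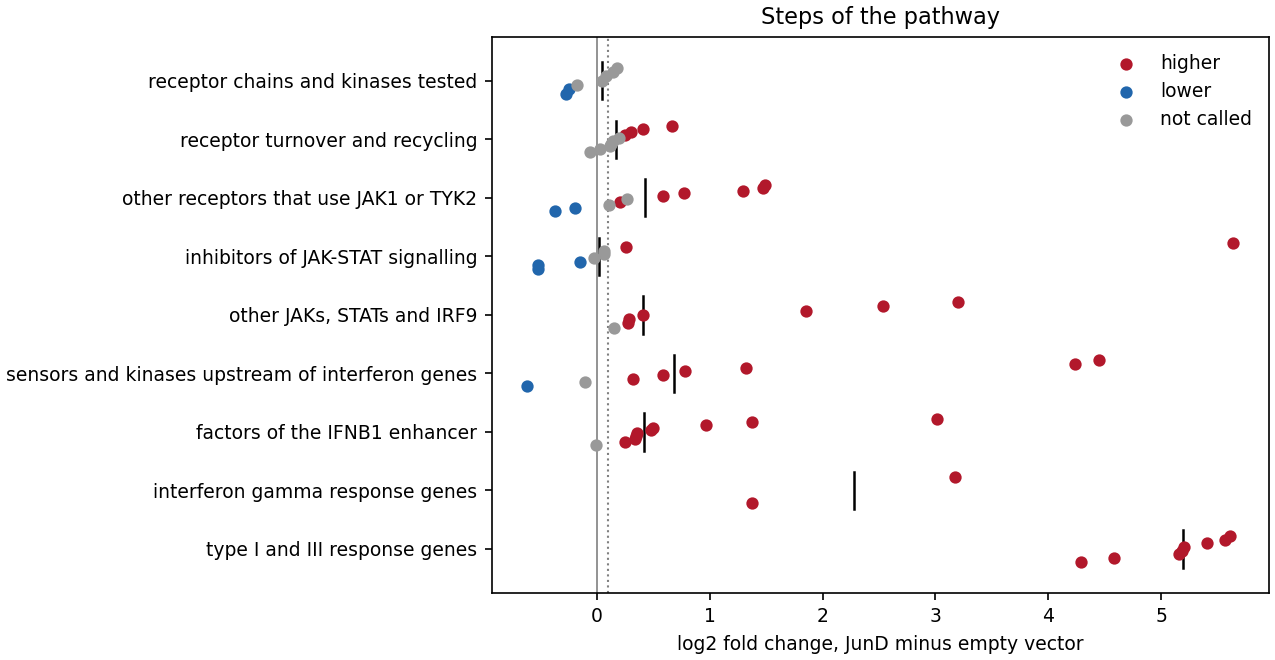
Log2 fold change (JunD minus empty vector) of each tested gene in 9 groups, coloured by limma call, with a black bar at each group's median. The dotted line is the median of all genes tested, 0.10. The 7 tested receptor chains and kinases lie within 0.3 of 0, and all 8 type I and III response genes lie at 4.29 or above. Of these 8, 3 passed the filter only through the JunD libraries.

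Among the other JAKs, STATs and IRF9, 6 of 7 tested rose and 0 fell, with a median of 0.41. Of all genes tested 31.5% were called higher and 14.7% lower. IRF9, the DNA-binding partner of STAT2, rose by 3.20, from 4.75 ± 0.48 to 47.7 ± 2.44 RPKM (SD, n = 3), and STAT2 rose by 1.86. JAK2, the partner of IFNGR2, rose by 0.41 from a low level, 1.27 ± 0.045 to 1.86 ± 0.23 RPKM (limma adjusted p = 0.013). JAK3, found mainly in lymphoid cells, had at most 3 reads in a library.

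Inhibitors of the pathway went both ways, with 2 of 8 tested higher and 3 lower and a median of 0.02. Of all genes tested 31.5% were called higher and 14.7% lower. Without USP18, which passed the filter only through the JunD libraries, 1 of 7 was called higher. USP18, which binds IFNAR2 and blocks further signalling, rose by 5.64, from 0.840 ± 0.062 to 66.3 ± 2.62 RPKM (SD, n = 3). The phosphatase PTPN11 and the STAT inhibitor PIAS3 fell by 0.52 each on the log2 scale. SOCS3 was at 3.84 ± 0.24 and 3.91 ± 0.26 RPKM, a log2 fold change of -0.02 (limma adjusted p = 0.82). SOCS1, a direct inhibitor of the kinases, stayed below the filter, with 6, 4 and 11 reads against 9, 13 and 6.

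Genes of receptor turnover and recycling rose in 4 of 10 tested and fell in 0, with a median of 0.17, against 31.5% of all genes tested that were called higher. Among them were the kinases PRKD2 (0.66) and CSNK1A1 (0.41), which are known to act on IFNAR1 ahead of its degradation, and the sorting protein STAM (0.30). BTRC and FBXW11, which recognise phosphorylated IFNAR1, were not called, at 0.12 and 0.03.

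Other receptors that use JAK1 or TYK2 rose in 6 and fell in 2 of 10 tested, with a median of 0.42. Of all genes tested 31.5% were called higher and 14.7% lower. Without IL22RA1 and LIFR, which passed the filter through a single group, 5 of 8 rose. IL7R rose by 1.30, the IL10RB partner IL22RA1 by 1.49, from 0.593 ± 0.12 to 2.56 ± 0.17 RPKM (SD, n = 3), and the shared signalling chain IL6ST by 0.77. IL2RG, the common chain of lymphoid cytokine receptors, had 14, 7 and 15 reads with JunD and 0 reads in each empty-vector library.

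Upstream of the ligands, sensors and kinases rose in 6 and fell in 1 of 8 tested, with a median of 0.69. Of all genes tested 31.5% were called higher and 14.7% lower. Without IFIH1, which passed the filter only through the JunD libraries, 5 of 7 rose. The RNA sensors IFIH1 and DDX58 rose by 4.45 and 4.23 and the adaptor TMEM173 (STING) by 1.32, while their adaptor MAVS, chosen after its value was seen, fell by 0.62. TLR3, a sensor of double-stranded RNA, was below the filter at 75, 74 and 77 reads against 7, 9 and 4. Factors of the IFNB1 enhancer rose in 9 of 10 tested and fell in 0, with a median of 0.42, against the same shares of all genes. Without IRF7, which passed the filter only through the JunD libraries, 8 of 9 rose. IRF7 rose by 3.01, IRF1 by 1.37 and the architectural protein HMGA1 by 0.97, while ATF2 was at 4.75 ± 0.24 and 4.76 ± 0.17 RPKM. Of 20 other interferon genes listed, only IFNE matched the table, with 1, 1 and 2 reads in the JunD libraries against 0, 4 and 0.

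Markers of other cell types were summed in each library. Of 10 leukocyte markers 6 were in the table, and their summed level was 158 to 187 RPKM with JunD and 37.0 to 41.4 RPKM with the empty vector, nearly all of it CD68, the only one tested, which rose by 2.15. PTPRC, the defining leukocyte marker, and LILRA4, a marker of plasmacytoid dendritic cells, had 0 reads in every JunD library. CD14 went the other way from CD68, with 4, 2 and 5 reads with JunD against 8, 11 and 13. NKG7 had 1, 0 and 0 reads against 2, 3 and 0. The 4 endothelial markers summed to at most 0.0718 RPKM in any library. The 5 fibroblast markers in the table summed to 2.80 to 3.41 RPKM with JunD and 6.26 to 7.62 with the empty vector, and PDGFRB, the only one tested, fell by 0.94. Of the epithelial markers 3 of 8 were tested, of which KRT8 and KRT18 fell and CLDN1, which passed the filter only through the JunD libraries, was higher. TP63, below the filter, had 7, 7 and 6 reads with JunD and 0 in each empty-vector library. The part of these differences in the results above was not tested.

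The peak list was searched for JunD peaks near the starts of the members. It holds 61360 peaks called by the authors, whose fold enrichment has a median of 3.12 and whose q has a median of 0.35. Each fold and q below is the authors' value for that peak. Within 5 kb of their starts, 4 of the 10 members had a peak, IFNB1, IFNGR1, IFNGR2 and JAK1, against 20.5% of genes tested for expression. Within 1 kb it was 3 members, against 7.43%, and within 20 kb it was 7, against 65.5%. A peak inside the gene was found for 5 members, against 49.6%. These shares cover genes that passed the expression filter, which IFNB1, IFNL1 and IFNLR1 did not, so the sets are not alike. With 1 precipitated library there is no replicate, and none of the peaks within 5 kb of a start had q below 0.05.

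At IFNGR1, which fell, the peak began 222 bp inside the start in an intron (chromosome 6, 137218949 to 137219227) with a fold enrichment of 3.32 and q of 0.18. At JAK1 a peak lay 859 bp inside the start in an intron (chromosome 1, 64965233 to 64965645, fold enrichment 3.90, q 0.072). A further intronic JAK1 peak (64938714 to 64939007) had a fold enrichment of 4.49 and, with q of 0.049, was the only peak inside a member with q below 0.05. The IFNGR2 peak ended 117 bp before the start (chromosome 21, 33402494 to 33402779) and was weak, with a fold enrichment of 2.49 and q of 0.57. At IFNB1 the nearest peak was 2.87 kb before the start (chromosome 9, 21080835 to 21081085, fold enrichment 3.69, q 0.18), outside the sequence shown above.

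For IFNAR1, which also fell, the nearest peak was 27.3 kb away, inside IL10RB, and for TYK2 it was 72.4 kb away. IFNLR1 had a peak 5.20 kb before its start (fold enrichment 4.03, q 0.086), IFNL1 one at 10.5 kb and IFNAR2 one at 6.55 kb in an intron. The members called lower thus included 1 with a peak at its start and 1 without.

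**Figure D5:**
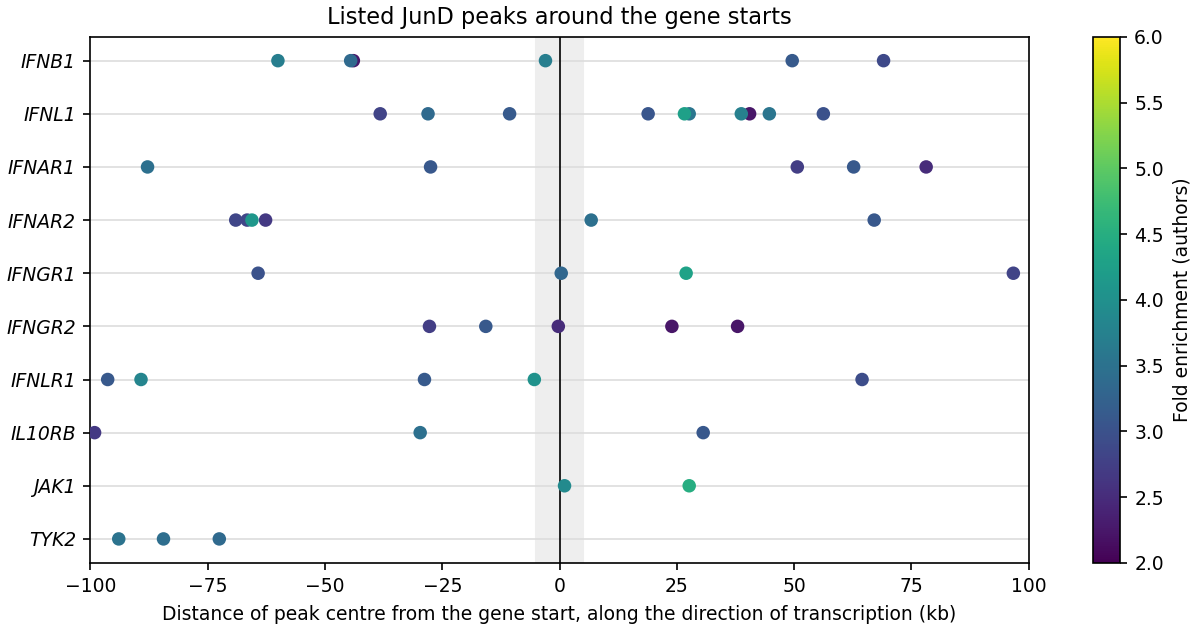
Listed JunD peaks within 100 kb of each member's start, with the distance of the peak centre in kb along the direction of transcription and the authors' fold enrichment as colour; the grey band spans 5 kb either side. Peaks fall in the band at IFNB1, IFNGR1, IFNGR2 and JAK1, and none of the points exceeds a fold enrichment of 4.49. Neighbours on chromosome 21 share peaks.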

How the data were processed

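The authors deposited RPKM per gene, with exon coordinates and exon length, for 6 RNA libraries. The peak list that the authors deposited gives each peak a fold enrichment (a ratio) and a p-value and q-value, called on the JunD library against input. The tools, with no roles stated, were per the submitters' processing notes MACS2 2.1.1, bedtools 2.25.0, STAR 2.5.3a, Trimmomatic 0.36, featureCounts and Subread 1.5.1, and the build was GRCh38. Multiplied by exon length, 100% of RPKM values in each library were whole multiples of its smallest positive one (within 0.01), so reads were recovered. No source used here gives the annotation release, the strand setting or whether 1 unit is a read or a read pair.

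The test was limma 3.58.1 (R 4.3.3, trend on intensity) on log2(RPKM + 0.5). It covered the 13379 genes whose RPKM averaged 1 or more, was two-sided and was Benjamini-Hochberg adjusted over them. The pseudocount understates changes of low genes. Every adjusted p comes from limma unless named. The script was tested on simulated data. The changes planted there were larger than those of the tested members, so the simulation does not bear on their calls. Exact permutation tests used scipy 1.17.1.

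Members and lists were chosen with earlier results of these data known. Named genes are the members, JUND, up to 3 tested genes per list with the smallest p, the 2 genes most correlated with each tested member and tested genes within 500 kb of the start of IFNAR1. An item the rule names is not reported here. Other genes were named after their values were seen. Alternatives were other pseudocounts, filters, scalings, limma voom, no trend, a replicate block and each library left out.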

Additional observations from a re-analysis of the deposited data

How the results depend on the processing

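Of the 7 tested members, 2 were called lower and 0 higher. Scaled as TPM it was 1 lower and 2 higher. With a library left out, 1 to 3 were lower and 0 higher. Over all genes 4213 were called higher and 1963 lower, and 2334 higher with a filter at 5 RPKM, where fewer genes are tested. After median-of-ratios scaling 3143 were lower, and after quantile normalization 2657 were higher and 3244 lower. With a library left out, 3116 to 4375 were higher and 1333 to 2645 lower. Of the pathway genes 42 were higher and 6 lower, and 37 to 42 and 3 to 6 with a library left out. These counts include the genes that passed the filter only through the libraries of a single group. Apart from the fewer genes tested, the cause of these shifts was not tested.

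Replicate numbers are shared by the groups, but same-numbered libraries did not deviate together (correlations -0.17, -0.08 and -0.38), so they were not treated as pairs, and no library correlated best with its own number. With a replicate block 0 members, 1188 of all genes and 3 pathway genes were lower, and 2810 of all genes were higher.

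Below 0 after quantile normalization were IFNAR2 (-0.0024), IFNGR2 (-0.084) and TYK2 (-0.076), after median-of-ratios scaling IFNGR2 (-0.083) and TYK2 (-0.038), and without JunD replicate 3 IFNGR2 (-0.059) and TYK2 (-0.027). With a library left out IFNGR2 ranged from -0.059 to 0.11 and TYK2 from -0.027 to 0.14. The pair difference of IFNLR1 and IL10RB turned to 0.10 with a pseudocount of 0.1 and ranged from -0.13 to 0.058 with a library left out. It ranged from -0.44 to -0.36 for IFNAR1 and IFNAR2, from -0.38 to -0.21 for IFNGR1 and IFNGR2 and from -0.30 to -0.21 for JAK1 and TYK2. The mean excess of IFNB1 and IFNL1 reads per JunD library, 2.33, ranged from 1.5 to 3.0. Of the 10 members 4 had a peak within 5 kb, 7 within 20 kb, and 0 with q below 0.05 or with a fold enrichment of at least 5.

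Read depth limits IFNB1 and IFNL1, where 3 reads in a library correspond to 0.118 to 0.219 RPKM.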

Other observations

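IFNL3P1, a pseudogene of the lambda interferon cluster on chromosome 19, was picked after its values were seen. It had 4, 2 and 1 reads in JunD replicates 1 to 3 and 0 reads in each empty-vector library, the same totals, 7 and 0, as IFNB1 and IFNL1 together. The two-sided exact permutation p was 0.1, the smallest that 3 against 3 libraries allow. A pseudogene can take reads from close copies, and this was not tested.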
